A study of Sus scrofa with 6 samples.

Results

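CA2, CA4, CA12 and CA13 are 4 carbonic anhydrase genes of the pig, out of 21911 genes with a value in each library, found by matching pig Ensembl identifiers to gene symbols. The libraries were prepared from gut RNA of 6 samples, 3 labelled SMP and 3 labelled Control. The series' design text sets piglets given a metasilicate-based alkaline mineral water to drink against Control piglets. It does not spell out the abbreviation SMP, and no label used here names the gut segment or the age, breed or sex of the piglets. No label ties a sample to its own piglet, so the spread between samples may be technical. The 4 genes were selected on their FPKM difference between SMP and Control, so their values in that comparison are a description and carry no test.

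Carbonic anhydrases are zinc enzymes that interconvert carbon dioxide and water with bicarbonate and a proton. In gut epithelium they supply bicarbonate and protons to the exchangers that absorb sodium chloride and secrete base. CA2 and CA13 encode enzymes of the cytosol. CA4 encodes an enzyme tethered to the outer face of the plasma membrane by a lipid anchor, and CA12 a transmembrane enzyme whose active site also faces outward. In human colon, CA4 is a known marker of mature surface absorptive cells, and CA12 is best known from renal and colonic epithelium and as a gene induced by low oxygen.

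The library totals behind the deposited values were 16816165 to 20712701 reads or read pairs in SMP and 15927028 to 18636198 in Control. Values are in FPKM, which divides the fragments of a gene by its length and by the library total, so levels can be compared between genes. SMP replicate 3 and Control replicate 2 stood apart from the others of their groups on the second principal component (28.9 and -38.6, 24.7% of the variance), so values are also given without both. Epithelial genes were high in every library: EPCAM, an epithelial adhesion protein, was at 201 to 225 FPKM in SMP and 156 to 236 FPKM in Control. FABP2, a fatty acid-binding protein of enterocytes, was at 1461 ± 482 FPKM in SMP and 605 ± 172 FPKM in Control (SD, n = 3 each, limma adjusted p = 0.0612), and VIL1, the brush border protein villin, at 633 ± 139 FPKM in SMP and 458 ± 45.8 FPKM in Control (limma adjusted p = 0.202). For both, every SMP library was above every Control library. The 11 epithelial markers with values, FABP2 among them, summed to 4847 to 5618 FPKM in SMP and 3602 to 4370 FPKM in Control. Of these 11, 0 were called by limma (2 at an unadjusted p under 0.05 and 1 by voom). Every SMP library was above every Control library for 3 of these 11, against 21.1% of all tested genes, so nothing is read from this count. KRT8 was at 1068 ± 149 FPKM in SMP and 954 ± 111 FPKM in Control, and KRT20 at 724 ± 37.8 and 792 ± 198 FPKM, with overlapping groups. The Y-linked gene EIF1AY was at 23.9 to 29.6 FPKM in SMP and 0 to 0.187 FPKM in Control, so sex and treatment cannot be told apart in these samples. In bulk tissue, fewer cells of a type and less RNA per cell cannot be told apart.

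Of the 4 genes, CA4, CA13 and CA12 had higher values in SMP, and CA2 did not separate the groups. CA4 averaged 8.65-fold, CA13 7.49-fold and CA12 2.69-fold more FPKM in SMP than in Control, each with 3 libraries per group. The mean of CA2 was 1.54-fold higher in Control than in SMP, with overlapping groups.

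CA4 (ENSSSCG00000023186), the lipid-anchored enzyme of the outer membrane face, was at 24.0, 21.2 and 8.88 FPKM in SMP replicates 1, 2 and 3, against 0.491, 3.49 and 2.27 FPKM in Control replicates 1, 2 and 3. Every SMP library was above every Control library, and SMP replicate 3 was the lowest of its group at 2.54 times the highest Control library. The means were 18.0 ± 8.04 FPKM in SMP and 2.08 ± 1.51 FPKM in Control (SD, n = 3 each). Taken as SMP minus Control after 1 was added to each FPKM, the log2 difference was 2.66 (SE 0.49). On this scale the pseudocount of 1 shrinks the change of genes with low values. The values rested on 1385 reads over the SMP libraries and 136 over the Control libraries. Control replicate 1 held 10 of these, which gives 0.235 to 0.903 FPKM as its exact 95% Poisson interval, for counting error only.

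CA13 (ENSSSCG00000006143), a cytosolic enzyme, was at 4.13, 4.53 and 5.33 FPKM in SMP replicates 1, 2 and 3, against 0.444, 0.674 and 0.752 FPKM in Control replicates 1, 2 and 3. No library of one group came near the other group, and the lowest SMP library was 5.50 times the highest Control library. The means were 4.66 ± 0.608 FPKM in SMP and 0.623 ± 0.160 FPKM in Control (SD, n = 3 each), with a log2 difference of 1.80 (SE 0.15). CA13 had 2129 reads in SMP and 253 in Control, the most of the 4 genes in each group, over a recovered gene length of 7925 bases.

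CA12 (ENSSSCG00000004565), the transmembrane enzyme, was at 1.92, 2.48 and 1.93 FPKM in SMP replicates 1, 2 and 3, against 0.923, 0.736 and 0.694 FPKM in Control replicates 1, 2 and 3. The groups did not overlap, with the lowest SMP library at 2.08 times the highest Control library. The means were 2.11 ± 0.320 FPKM in SMP and 0.784 ± 0.122 FPKM in Control (SD, n = 3 each), and the log2 difference was 0.80 (SE 0.15). In RefSeq's annotation of Sscrofa11.1, where the name table matched 2 of the 4 genes, CA12 on chromosome 1 lies within the span of APH1B, which encodes a gamma-secretase subunit. APH1B itself was at 0.0705 to 0.105 FPKM in SMP and 0.0451 to 0.0585 FPKM in Control. No source used here says whether counting was by strand, so reads that overlap both genes are uncertain. In the same annotation CA12, and CA4 on chromosome 12, each overlap a long noncoding RNA gene, so reads there are uncertain too.

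CA2 (ENSSSCG00000006140), the fast cytosolic enzyme found in many tissues and in red cells, was at 0.782, 1.04 and 1.64 FPKM in SMP replicates 1, 2 and 3, against 3.16, 0.364 and 1.81 FPKM in Control replicates 1, 2 and 3. The SMP values all lay between the lowest and the highest Control library. The means were 1.15 ± 0.437 FPKM in SMP and 1.78 ± 1.40 FPKM in Control (SD, n = 3 each), with a log2 difference of -0.24 (SE 0.40). Without Control replicate 1 the log2 difference was 0.12, so that 1 library set its sign, and without both SMP replicate 3 and Control replicate 2 it was -0.84. Counting error did not cover the spread within Control: the exact 95% Poisson intervals were 2.65 to 3.73 FPKM for replicate 1 (137 reads) and 0.208 to 0.592 FPKM for replicate 2 (16 reads). Of the red cell genes, 7 had values and summed to 3.17 to 18.9 FPKM in SMP and 13.5 to 20.2 FPKM in Control. Their part in the CA2 values was not tested.

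**Figure D1:**
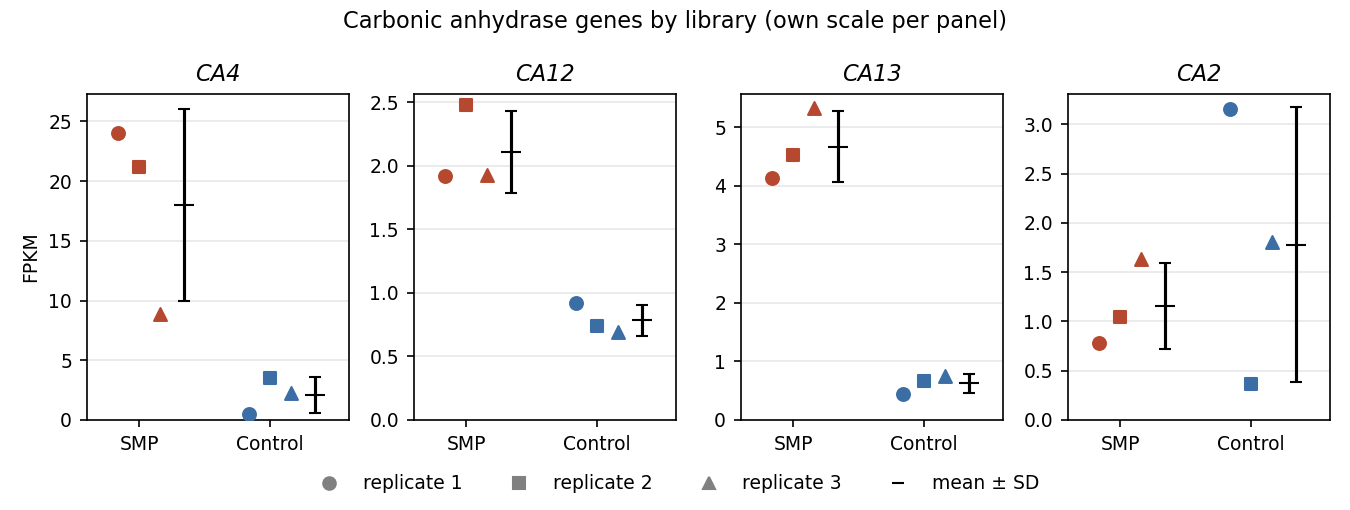
FPKM of CA4, CA12, CA13 and CA2 in each library, SMP on the left and Control on the right of each panel, with the mean ± SD of 3 libraries beside the points; each panel has its own scale from 0. The SMP libraries lie above the Control libraries for CA4, CA12 and CA13, and CA2 ranges from 0.364 to 3.16 FPKM within Control.

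The fit over all genes gave the background to these values. Of 11471 genes tested with limma, 3.5% were called higher in SMP and 2.1% lower, 401 and 241 genes. With the libraries rescaled by median ratios these were 344 and 462, and scaled to epithelial genes 115 and 842. CA4, CA12 and CA13, 3 of the 4 genes, were among those called higher and none was called lower. Every SMP library was above every Control library for 3 of the 4 genes, against 21.1% of all tested genes. Nothing is read from either count, since the genes were chosen with this comparison known. All 4 genes passed the minimum mean of 1 FPKM over the 6 libraries, but CA12 and CA13 had Control means below 1 FPKM and passed through their SMP values, so they had to differ. CA4 and CA12 were not called without Control replicate 1, Control replicate 3, SMP replicate 1 or SMP replicate 2, and the count of the 4 genes called was then 1.

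**Figure D2:**
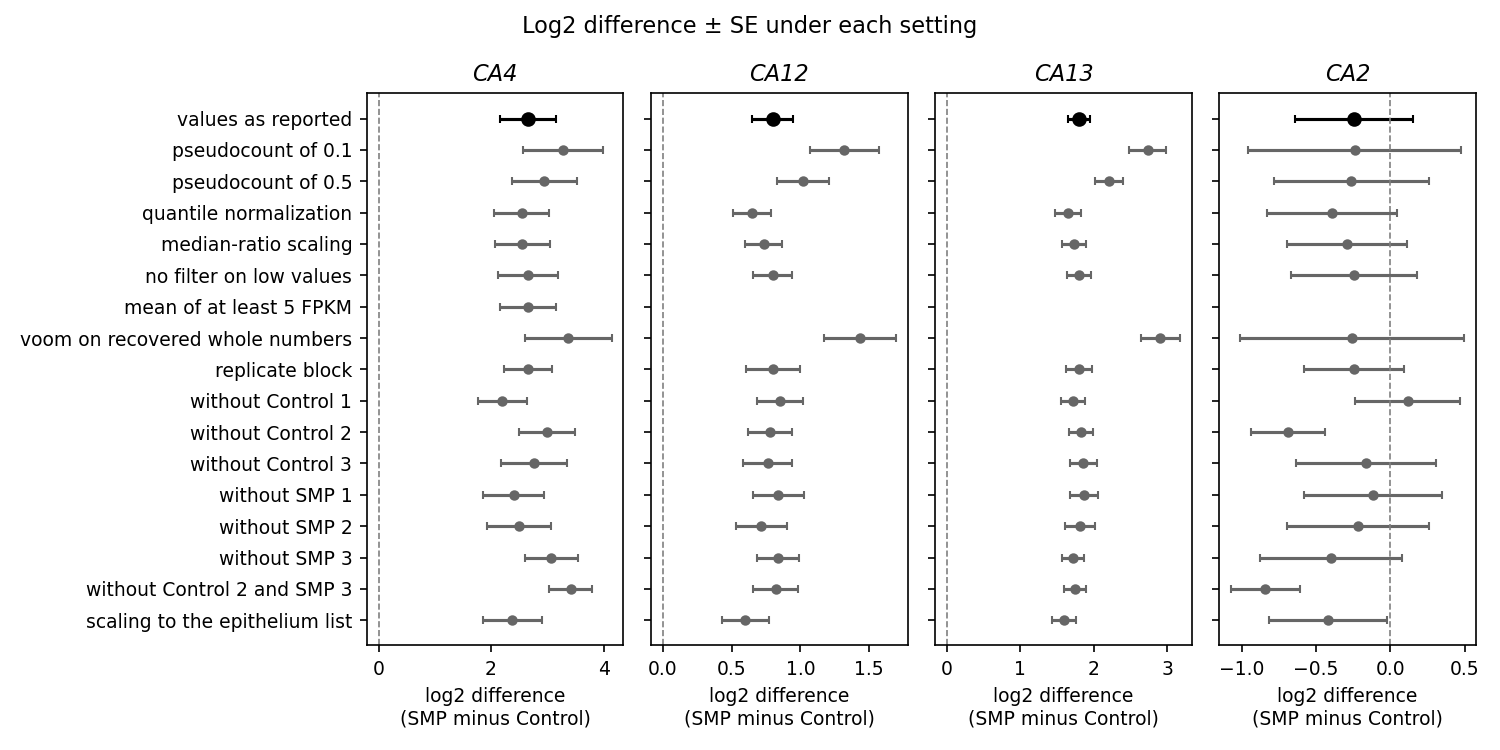
Log2 difference (SMP minus Control) with its SE, from the fit as reported and under each other setting listed on the left, for CA4, CA12, CA13 and CA2. CA4, CA12 and CA13 lie above 0 in every setting that gave a value, CA4 from 2.20 to 3.42, and CA2 lies near 0 or below it, from -0.84 to 0.12.

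The 4 genes differed in how much they varied among samples of a group. CA12 and CA13 were the steadier ones: the highest library was 1.29 times the lowest for each within SMP, and 1.33 times for CA12 and 1.69 times for CA13 within Control. CA4 ranged 2.70-fold within SMP and 7.12-fold within Control, and CA2 ranged 2.09-fold within SMP and 8.66-fold within Control. CA4 and CA2 ran in opposite order within each group. SMP replicate 1 was highest for CA4 and lowest for CA2, and SMP replicate 3 the reverse. Control replicate 2 was highest for CA4 and lowest for CA2, and Control replicate 1 the reverse. With 3 libraries in a group this order is a description.

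The order of the levels was fixed in SMP and unsettled in Control. In 3 of 3 SMP libraries CA4 was highest, followed by CA13, CA12 and CA2, and no neighbours in that order overlapped over the libraries. In Control the order was different in each library. The Control means ran from CA4 through CA2 and CA12 to CA13, and each gene overlapped its neighbour in that order. CA4 was at 30.7, 20.3 and 5.43 times CA2 in SMP replicates 1, 2 and 3, against 0.156, 9.59 and 1.25 times in Control replicates 1, 2 and 3. CA13 was at 2.15, 1.83 and 2.76 times CA12 in SMP replicates 1, 2 and 3, against 0.481, 0.915 and 1.08 times in Control replicates 1, 2 and 3. The ratio of the cytosolic CA13 to the transmembrane CA12 was therefore higher in every SMP library than in any Control library. Among all genes of a library, CA4 stood at percentiles 78.9 to 90.2 in SMP and 42.6 to 64.8 in Control, and CA2 at 45.4 to 53.6 in SMP and 38.6 to 62.8 in Control.

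Summed, the 4 genes gave 30.8, 29.2 and 17.8 FPKM in SMP replicates 1, 2 and 3, against 5.01, 5.27 and 5.52 FPKM in Control replicates 1, 2 and 3. Within Control the sum varied little although its make-up did not hold. CA2 made 62.9%, 6.92% and 32.8% of the sum in Control replicates 1, 2 and 3 and CA4 9.79%, 66.3% and 41.0%. In SMP replicates 1, 2 and 3, CA4 made 77.8%, 72.5% and 49.97% of the sum, CA13 13.4%, 15.5% and 30.0%, and CA2 2.54%, 3.58% and 9.21%.

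Of 16 carbonic anhydrase symbols looked for, 11 had values, and 8 of these encode active enzymes. CA7, a cytosolic enzyme, was at 40.2, 32.9 and 16.8 FPKM in SMP replicates 1, 2 and 3, against 0.233, 1.12 and 1.02 FPKM in Control replicates 1, 2 and 3. The 8 active genes summed to 58.1 ± 19.6 FPKM in SMP and 7.92 ± 2.03 FPKM in Control (SD, n = 3 each). CA2, CA4, CA12 and CA13 made 41.9%, 45.3% and 49.2% of that sum in SMP replicates 1, 2 and 3, against 82.4%, 52.2% and 72.8% in Control replicates 1, 2 and 3, and CA7 made most of the rest in SMP. By place in the cell, the enzymes with an outward-facing active site (CA4, CA12 and CA14) summed to 21.4 ± 8.20 FPKM in SMP and 3.52 ± 1.91 FPKM in Control. Those of the cytosol (CA2, CA3, CA7 and CA13) summed to 35.9 ± 10.97 FPKM in SMP and 4.14 ± 0.265 FPKM in Control. The ratio of outward-facing to cytosolic FPKM was 0.607, 0.640 and 0.508 in SMP replicates 1, 2 and 3, against 0.486, 1.28 and 0.731 in Control replicates 1, 2 and 3, and the groups overlapped.

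**Figure D3:**
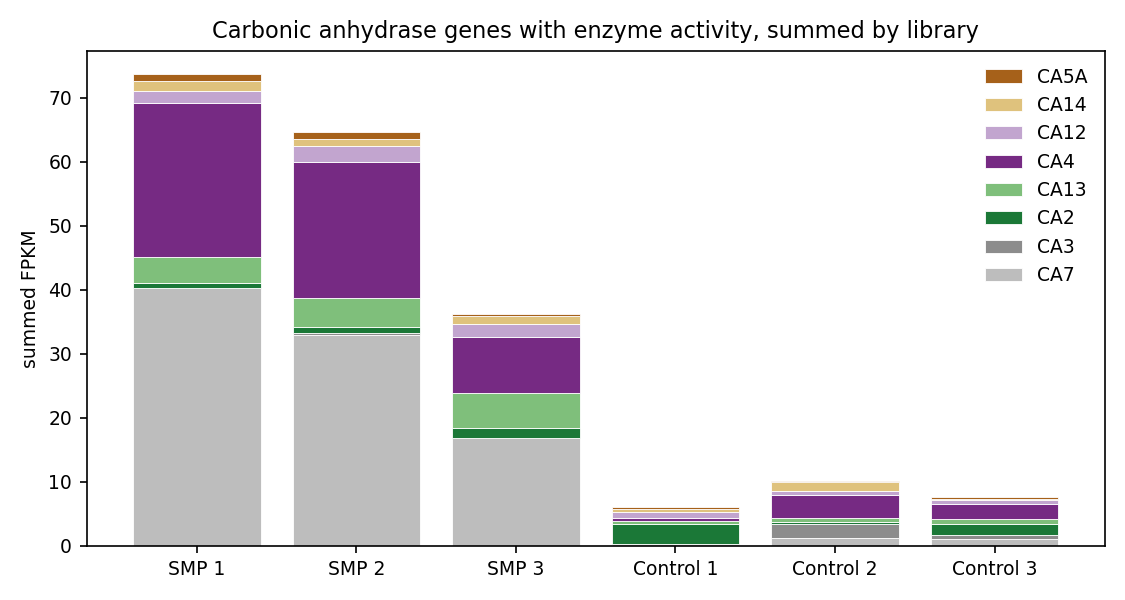
FPKM of the 8 carbonic anhydrase genes that encode active enzymes, stacked for each library, the 3 SMP libraries on the left and the 3 Control libraries on the right. CA4 and CA7 fill most of the SMP bars, whose lowest is SMP replicate 3, and CA2 is the largest segment in Control replicate 1.

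The transport genes that use bicarbonate were set beside the 4 genes. In the list of bicarbonate and chloride transport 2 of 10 tested genes rose and none fell (median log2 difference 0.18, against 0.09 over all 11471 tested genes). SLC26A3, the surface exchanger that takes up chloride for bicarbonate, rose, with 19.9 ± 0.899 FPKM in SMP and 0.475 ± 0.0956 FPKM in Control (log2 difference 3.83, SE 0.12, limma adjusted p = 1.71e-05). It passed the minimum through its SMP values and was also called with no filter on low values. SLC4A4, a sodium and bicarbonate cotransporter of the basolateral membrane, rose, with 9.35 ± 1.23 FPKM in SMP and 4.25 ± 1.19 FPKM in Control (log2 difference 1.00, SE 0.20, limma adjusted p = 0.0413). SLC26A6, an anion exchanger of the apical membrane, was at 27.5, 29.3 and 33.99 FPKM in SMP, against 2.80, 20.8 and 13.4 FPKM in Control (limma adjusted p = 0.16). CFTR, the chloride and bicarbonate channel, was at 7.34 ± 1.70 FPKM in SMP and 12.6 ± 5.84 FPKM in Control (limma adjusted p = 0.338). The SLC4A4 call was kept without Control replicate 2 (limma adjusted p = 0.0351) and lost without any other single library (0.0651 to 0.151) or with no filter (0.084).

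In the list of proton transport and pH sensing 1 of 9 tested genes rose and none fell (median 0.16). That gene was OTOP2, a proton channel, with 22.6 ± 1.81 FPKM in SMP and 1.31 ± 0.429 FPKM in Control (log2 difference 3.37, SE 0.17, limma adjusted p = 3.01e-04). The sodium-proton exchanger genes did not pass: SLC9A3 was at 9.24, 10.01 and 19.1 FPKM in SMP and 49.9, 15.7 and 31.8 FPKM in Control (limma adjusted p = 0.147). The related channel gene OTOP3 was at 0 to 0.158 FPKM in SMP and 0.330 to 14.8 FPKM in Control (limma adjusted p = 0.133). Like CA2, SLC9A3 and OTOP3 were highest in Control replicate 1 and lowest of the Control libraries in replicate 2. Other genes of the transport lists, such as CFTR, CLCN2 and SLC9A2, had the same order within Control, so it is not particular to these genes. None of 5 tested genes of monocarboxylate and short-chain fatty acid transport passed the limma test (median 0.09), with 0 at an unadjusted p under 0.05 and 0 called by voom. Among them SLC16A3, an exporter of lactate and protons, was at 38.1 ± 6.81 FPKM in SMP and 35.4 ± 3.68 FPKM in Control (limma adjusted p = 0.781), and SLC5A8, a sodium-coupled carrier of short-chain fatty acids, at 22.2 ± 1.77 FPKM in SMP and 21.1 ± 4.54 FPKM in Control (limma adjusted p = 0.802).

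**Figure D4:**
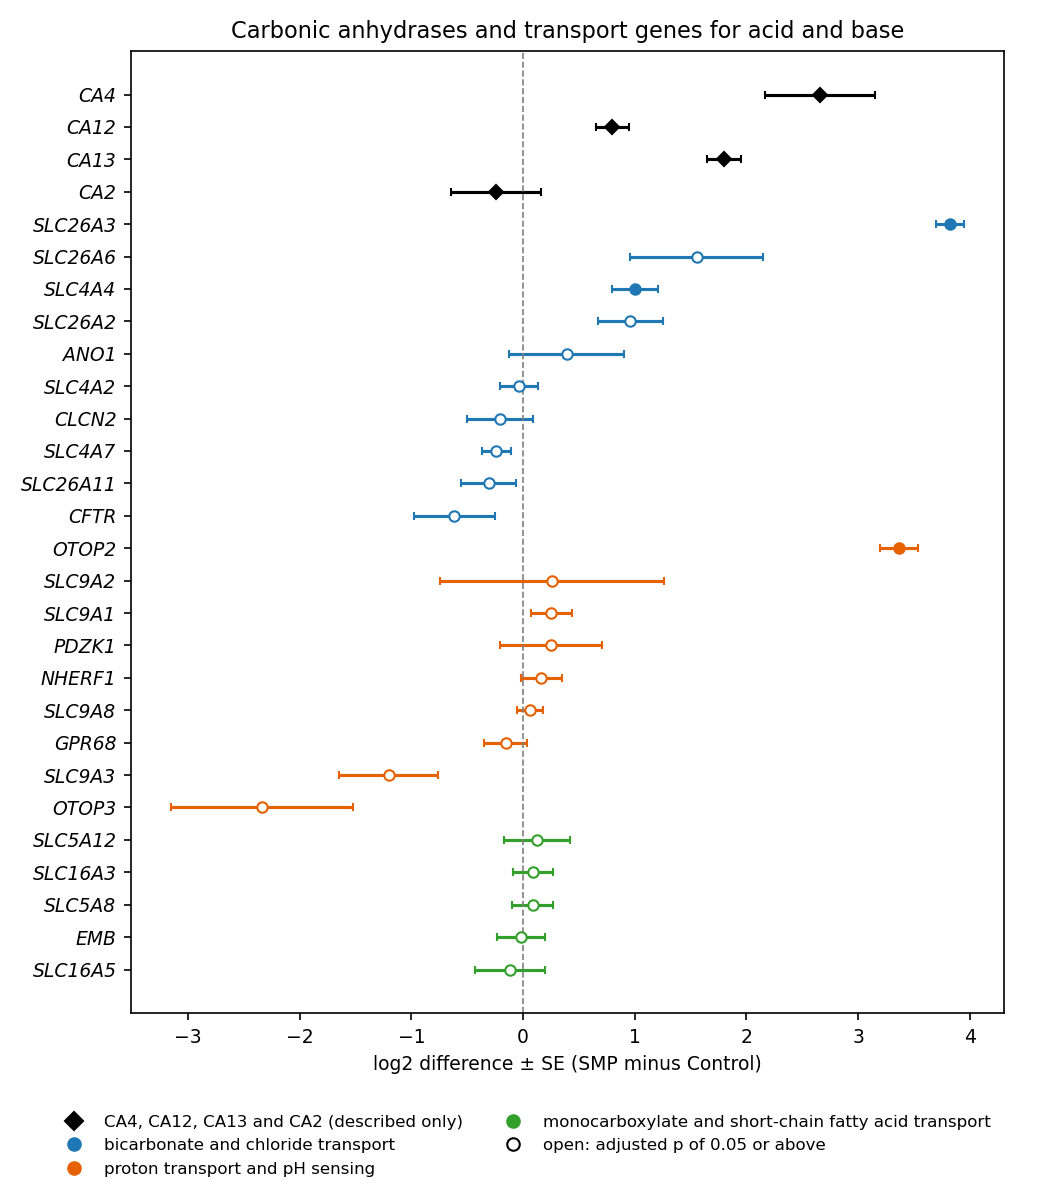
Log2 difference (SMP minus Control) with its SE for CA4, CA12, CA13 and CA2 (diamonds) and for the tested genes of the 3 transport lists (circles, filled where the limma adjusted p was below 0.05). SLC26A3, OTOP2 and SLC4A4 are the filled circles, all to the right of 0, and the monocarboxylate carriers cluster about 0.

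Since CA12 is known in human cells as a gene induced by low oxygen, hypoxia-inducible genes were listed beside it. Of 23 tested, 1 rose and 1 fell (median 0.08). At an unadjusted limma p under 0.05, 4 were higher and 3 lower in SMP, and voom called 3. The hexokinase gene HK2 rose, with 3.48 ± 0.779 FPKM in SMP and 0.962 ± 0.0827 FPKM in Control (limma adjusted p = 0.019). Its Control mean was below 1 FPKM, so HK2 passed the minimum through its SMP values, and with no filter on low values it was not called (limma adjusted p = 0.0501). DDIT4, an inhibitor of mTOR signalling, fell, with 34.1 ± 7.499 FPKM in SMP and 64.6 ± 4.97 FPKM in Control (limma adjusted p = 0.0449, and 0.0761 with no filter). HIF1A, the oxygen-sensitive transcription factor subunit, was at 10.6 ± 2.04 FPKM in SMP and 6.99 ± 0.894 FPKM in Control (limma adjusted p = 0.121), and LDHA, lactate dehydrogenase, was at 240 ± 59.6 FPKM in SMP and 256 ± 46.7 FPKM in Control (limma adjusted p = 0.806). Without Control replicate 1, Control replicate 3, SMP replicate 1 or SMP replicate 2 neither HK2 nor DDIT4 was called (limma adjusted p from 0.0582 to 0.176). Without Control replicate 2 DDIT4 was not called (0.0593).

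Lists of markers of cell types and gut segments were set beside the 4 genes. Of 7 tested genes of BEST4 cells, a sparse absorptive cell type described in human gut, 4 rose (CA7, OTOP2, BEST4 and SPIB) and none fell (median 1.01), and the list summed to 628 to 1142 FPKM in SMP and 236 to 518 FPKM in Control. GUCA2B, which is also on the surface colonocyte list, made most of that sum. It was at 1031, 968 and 545 FPKM in SMP and 196, 486 and 412 FPKM in Control (limma adjusted p = 0.107). CFTR and HES4, also on the BEST4 list, had negative log2 differences (-0.62 and -0.18) and overlapping groups. Of 9 tested genes of the proximal small intestine none rose and 4 fell (GIP, MLN, BCO1 and TREH; median -1.63), with sums of 704 to 726 FPKM in SMP and 988 to 1237 FPKM in Control. Of 9 tested genes of surface colonocytes SLC26A3 rose and the water channel gene AQP8 fell (median -0.10), with overlapping sums of 1986 to 2551 FPKM in SMP and 1948 to 2534 FPKM in Control. Of 12 tested smooth muscle genes none passed limma (0 at an unadjusted p under 0.05 and 0 by voom), with sums of 2089 to 2805 FPKM in SMP and 232 to 3768 FPKM in Control, highest in Control replicate 2. The same counts, all 0, held for 9 fibroblast and endothelial genes, and of 12 tested leukocyte genes JCHAIN and MZB1 fell and none rose (sums of 122 to 168 FPKM in SMP and 310.5 to 460 FPKM in Control). JCHAIN (36.7 ± 15.5 FPKM in SMP and 162 ± 60.7 FPKM in Control) and MZB1 (16.8 ± 3.28 and 83.8 ± 14.4 FPKM) made most of the difference between these sums. Among leukocyte genes not called, TYROBP was lower in SMP without overlap (27.6 ± 4.22 FPKM in SMP and 47.5 ± 10.04 FPKM in Control, limma adjusted p = 0.0748). For others, such as the T cell gene CD3E, the groups overlapped. MLN, which encodes the hormone motilin, passed the minimum through its Control values, with 0.0143 ± 0.00535 FPKM in SMP (4 reads in all) and 2.33 ± 1.42 FPKM in Control, and CA7 passed through its SMP values. With no filter on low values MLN (limma adjusted p = 0.0927), BEST4 (0.0946), SPIB (0.053) and JCHAIN (0.0761) were not called. Without Control replicate 3 or SMP replicate 2 the calls of BEST4, SPIB, GIP, MLN, BCO1, TREH, AQP8 and JCHAIN were all lost (limma adjusted p from 0.0515 to 0.204), and each other library left out ended between 1 and 6 of these 8 calls. No marker in these lists was at 0 in every library. Their part in the values of CA2, CA4, CA12 and CA13 was not tested, and gut segment and treatment cannot be told apart, since the segment is not given. After each library was scaled to its epithelial genes, a setting chosen after seeing the data, CA12 was not called. The log2 differences of CA4, CA12 and CA13 were then 2.38, 0.60 and 1.59. Their direction could not have changed. The lowest SMP library was 2.54, 2.08 and 5.50 times the highest Control library for these genes, and the scaling factors differed by less. Nothing is read from that direction, and the scaling does not test the part of single cell types or of gut segment.

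The genes nearest in pattern to each carbonic anhydrase were listed. They were picked for their closeness, so that closeness is not a result. Likeness was the root mean square difference between a gene's log2(FPKM + 1) values and those of the carbonic anhydrase over the 6 libraries, after removal of each gene's mean, among 9973 other tested genes with a symbol. The nearest to CA4 was PLB1 (0.298), a phospholipase of the intestinal brush border, at 17.3, 18.6 and 5.70 FPKM in SMP, against 0.249, 1.27 and 0.773 FPKM in Control. TMIGD1 (0.436), an adhesion protein of enterocytes, FAM151A (0.483), XPNPEP2 (0.491), a membrane-bound aminopeptidase, and OSR2 (0.503), a transcription factor, came next. CA7 was at rank 20 and CA13 at rank 21 from CA4. From CA13 the ranks were not alike: CA12 was at rank 217, CA4 at rank 2254 and CA7 at rank 9309.

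The nearest genes to CA12 were CENPE (0.0489), a motor protein of the kinetochore, SLC35E1 (0.076), RCN1 (0.0769), a calcium-binding protein of the endoplasmic reticulum, SRSF1 (0.0779), a splicing factor, and CEP128 (0.0815), a centriole protein. CENPE was at 6.19, 7.42 and 6.14 FPKM in SMP, against 3.45, 3.33 and 2.84 FPKM in Control, and shared the high value of CA12 in SMP replicate 2. The nearest to CA13 were CDK6 (0.209), a cell-cycle kinase, RNF152 (0.21), a ubiquitin ligase, MBOAT2 (0.247), a lipid acyltransferase, KCNS1 (0.263), a potassium channel subunit, and GPRC5A (0.268), an orphan receptor. CDK6 was at 5.09, 4.09 and 5.66 FPKM in SMP, against 1.10, 1.11 and 1.17 FPKM in Control.

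The nearest to CA2 were UGP2 (0.0953), an enzyme of UDP-glucose synthesis, HAVCR2 (0.0973), an immune receptor, CHP2 (0.0978), a cofactor of sodium-proton exchangers, AADAC (0.11), a microsomal esterase, and ABCB6 (0.114), a transporter. CHP2 was at 60.1, 59.4 and 76.3 FPKM in SMP, against 119.6, 36.5 and 80.7 FPKM in Control, with the same order of libraries within Control as CA2. From CA2 the other 3 genes lay far off, with CA12 at rank 7889, CA13 at rank 9801 and CA4 at rank 9955. The measure uses the differences between SMP and Control as well as those within a group, so likeness among genes that changed is in part set by that comparison. It is not scaled to the size of a gene's differences, so genes that differ in the same direction by unlike amounts can lie far apart.

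**Figure D5:**
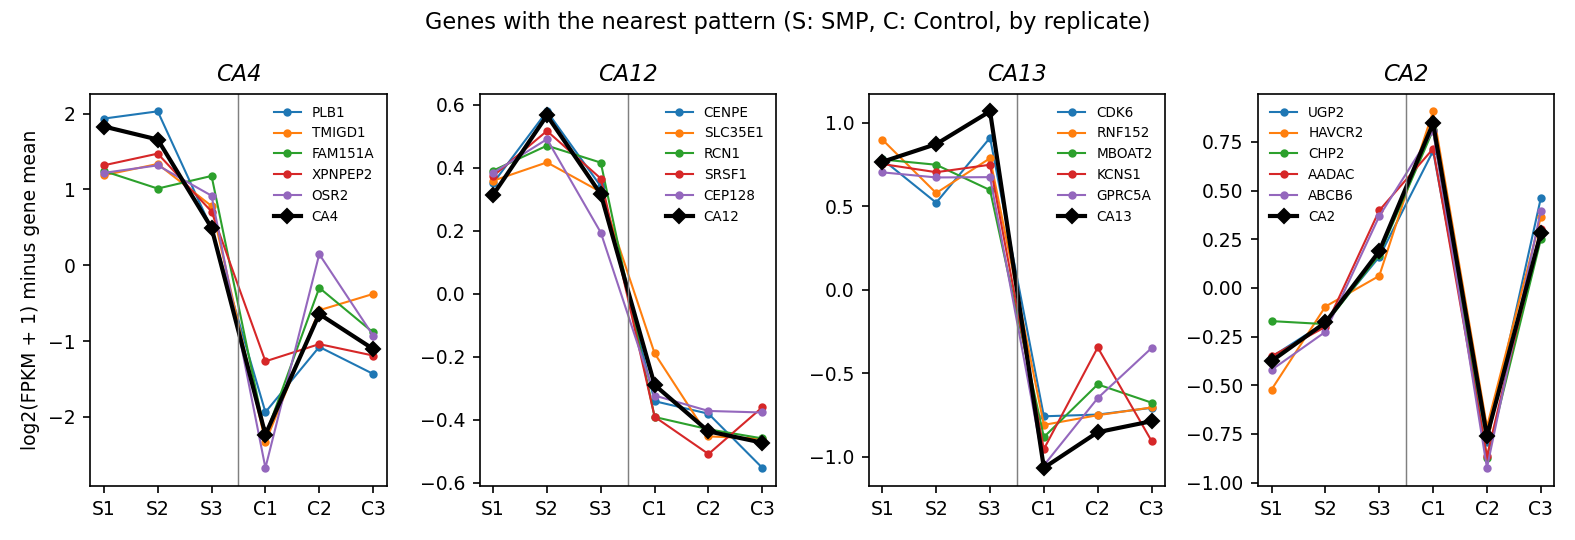
Log2(FPKM + 1) minus each gene's own mean, by library (S for SMP and C for Control, with the replicate number), for CA4, CA12, CA13 and CA2 (black diamonds) and the 5 genes nearest to each (coloured lines). CA2 and its neighbours peak in Control replicate 1 and dip in Control replicate 2, and the other 3 panels step down from SMP to Control.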

How the data were processed

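Per the labels' protocols, a NEBNext Ultra kit turned total RNA of pig gut into RNA-seq libraries. The tools named in the submitters' processing notes are DESeq2 1.16.1, HISAT2 2.0.5 and StringTie, without their roles, and the build named there is the mouse build mm10. The identifiers are pig Ensembl ones, so no build can be assigned and coordinates are left out. The authors deposited FPKM, 1 value per gene and library, a unit read from the values, since dividing out a length per gene and a total per library leaves whole numbers for 21911 of 21911 genes (relative tolerance 5e-09). These may be reads or read pairs. The total of each library sets its counting error, and intervals cover that error only. Symbols matched 14153 identifiers.

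Differences are from limma 3.58.1 in R 4.3.3 on log2(FPKM + 1) of the 11471 genes whose mean reached 1 FPKM, with treatment alone in the model, an empirical Bayes trend and Benjamini-Hochberg adjustment at 0.05 over all of them. On simulated data, all counts were recovered for 98.4% of genes. The fit called 84 of 100 simulated 2-fold rises, 100 of 100 simulated 4-fold rises and 12 unchanged genes. The libraries simulated for the fit had equal totals and none stood apart, unlike these data, so these rates may not hold here. Chi-square per degree of freedom between libraries of 1 group was 12.7 to 103, so no library was a duplicate of another. The 4 genes and all lists were chosen with earlier results of these data known. Genes named from a list were all those called, and up to 4 others among the highest by mean FPKM or chosen after their values were seen (EPCAM, SLC26A6, CFTR, SLC9A3, OTOP3, HIF1A). Alternatives were other pseudocounts, scalings and filters, voom on the recovered whole numbers, the replicate number as a block, libraries left out and, chosen after seeing the data, scaling to epithelial genes.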

Additional observations from a re-analysis of the deposited data

How the results depend on the processing

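Leaving out 1 library in turn gave 21 to 775 genes higher and 20 to 527 lower (401 and 241 as reported), 1 to 3 of the 4 carbonic anhydrases called, and log2 differences of -0.68 to 0.12 for CA2, 2.20 to 3.07 for CA4, 0.72 to 0.85 for CA12 and 1.72 to 1.87 for CA13. Without both SMP replicate 3 and Control replicate 2, 1804 were higher and 1230 lower. With no filter 158 were higher and 100 lower, and 1 of the 4 was called (CA13); with a mean of at least 5 FPKM 241 were higher and CA4, the 1 of the 4 still tested, was called. Median-ratio scaling gave 344 higher and 462 lower. Scaling to epithelial genes, which moved the median over all tested genes to -0.20, gave 115 higher and 842 lower; relative to that median CA4, CA12 and CA13 were at 2.58, 0.80 and 1.79. CA12 and CA13 also moved by more than their SD, to 1.32 and 2.74 with a pseudocount of 0.1, 1.02 and 2.21 with 0.5, 1.43 and 2.91 with voom, and 0.60 and 1.59 with epithelial scaling, and CA12 to 0.65 with quantile normalization. A smaller pseudocount shrinks low values less; the cause of the other moves was not tested. With the replicate block 115 genes were higher and 121 lower, and CA12 lost its call. Same-numbered libraries had deviations correlated at -0.306, 0.32 and -0.0374, and 2 of 6 libraries correlated best with their own number. No pairing by number was evident, but with 3 libraries per group these values cannot tell whether the samples were paired. The sums by place in the cell moved by less than 1 SD with median-ratio scaling. The shares could not move with it, since scaling a library cancels out of a share. Leaving out 1 of 3 libraries cannot move a group mean by 1 SD, so nothing is read from those settings for the sums or the shares. Of 16 called list genes, 5 (CA7, EIF1AY, MZB1, OTOP2 and SLC26A3) kept their call in every setting that tested them, and 0 reversed. CA4 in Control replicate 1 (10 reads) and CA2 in Control replicate 2 (16 reads) are limited by depth.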

Other observations

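The ratio of CA7 to CA4 varied less within each group than either gene did, but in Control replicate 1 it rested on 8 reads of CA7 and 10 of CA4. CA7 was at 1.68, 1.55 and 1.89 times CA4 in SMP replicates 1, 2 and 3, against 0.475, 0.322 and 0.451 times in Control replicates 1, 2 and 3, although CA4 ranged 2.70-fold within SMP and 7.12-fold within Control. CA7 was at 9.73, 7.27 and 3.15 times CA13 in SMP, against 0.526, 1.67 and 1.36 times in Control.

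The other carbonic anhydrases were low. CA14, a transmembrane enzyme, was at 1.31 ± 0.181 FPKM in SMP and 0.655 ± 0.659 FPKM in Control (SD, n = 3 each). The mitochondrial CA5A was at 0.766 ± 0.444 FPKM in SMP and 0.255 ± 0.137 FPKM in Control. CA3, the muscle enzyme, had 18 reads in all SMP libraries and 136 in all Control libraries. CA14, CA5A, CA3 and CA10 averaged under 1 FPKM over the libraries and were not tested, and the groups overlapped in each. CA8 and CA11, related proteins without enzyme activity, were at 2.27 ± 0.718 and 1.74 ± 0.176 FPKM in SMP and at 2.16 ± 0.423 and 2.84 ± 2.24 FPKM in Control (limma adjusted p = 0.943 and 0.592). CA1, CA5B, CA6, CA9 and CA15 were not analysed here.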
